A study of Homo sapiens with 2 samples.

Results

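The histone genes measured in FaDu cells with GLUT4 overexpression were compared with those in vector control cells. FaDu is an established line of human pharyngeal squamous carcinoma cells. One culture had been stably transduced by lentivirus with the GLUT4 sequence, GLUT4 being the insulin-responsive glucose transporter encoded by SLC2A4, and the other with the control vector, and both had been selected with puromycin. Total RNA from each gave 1 Affymetrix Human Genome U133 Plus array. Members were taken as the probe sets whose platform annotation names exactly 1 gene, with a symbol of the linker histones (H1-), the clustered core histones (H2AC, H2BC, H3C, H4C) or the other histone families (H2AZ, H2AX, H2AJ, H3-, H4-, MACROH2A). This gave 82 of 54675 probe sets and 58 of 19775 genes.

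DNA in the nucleus is wound around octamers of the core histones H2A, H2B, H3 and H4, and linker histones of the H1 family bind where the DNA enters and leaves the particle. Most core and H1 histones come from small genes without introns that lie in clusters, the largest of them on chromosome 6, and that are transcribed mainly during S phase, when new DNA has to be packaged. Their messengers mostly end in a stem-loop and not in a poly(A) tail, although some of these genes can also give polyadenylated transcripts. Replacement variants such as H2A.Z, H3.3 and macroH2A come from solitary genes, mostly with introns and ordinary polyadenylated messengers, and are made throughout the cell cycle. The labelling kit used here copies RNA from the polyadenylated end, so a probe set of a clustered gene need not have seen the whole pool of its messenger. How much of each messenger was copied was not tested.

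Of the 58 genes, classed by their symbols, 45 were clustered histone genes, 10 were replacement variants and 3 belonged to neither class. The clustered genes comprised 6 H1, 9 H2A, 14 H2B, 7 H3 and 9 H4 genes, of which 42 lie on chromosome 6, 2 on chromosome 1 and 1 on chromosome 21. Of the replacement genes, H3-3B and H3-5 had no probe set naming only them and were not analysed here. Values are linear intensities that were already normalized between the arrays, and each difference was taken on the log2 scale as GLUT4 minus vector. A gene with several probe sets is represented by the one with the highest mean of both arrays unless another is named. Each group being a single array, no replicate check and no test were possible. Technical error could be measured only from genes with several probe sets, whose disagreement over 10523 pairs corresponded to an SD of 0.20 for the difference of a single probe set. That SD covers neither the spread between cultures nor any other way in which the cell populations differed. Pairs whose probe sets may detect different transcripts were not left out of it. In a bulk sample, fewer cells of a type and less RNA per cell cannot be told apart.

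The median intensity of all probe sets was 39.1 on the GLUT4 array and 39.7 on the vector array, and the median difference over all genes was -0.02. SLC2A4 itself was at 32.6 on the GLUT4 array and 28.3 on the vector array, both below the median of all probe sets, and whether its probe set can see the introduced sequence was not determined. Both arrays carried the squamous markers KRT5 (13093 on the GLUT4 array, 11024 on the vector array) and SFN (11894 on the GLUT4 array, 11921 on the vector array). Other squamous markers were less even. EPCAM and CDH1 were lower with GLUT4 and KRT14 was higher, as given below, and PKP1 was dim (73.4 on the GLUT4 array, 70.8 on the vector array). None of the 23 marker genes measured was listed at 0.

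H2AC6, H2BC4 and H2BC5 were the histone genes with the largest differences, and the sequences in front of them are shown because the genes are neighbours and H2AC6 and H2BC4 share a single promoter region. RefSeq annotation of build GRCh38.p14 places the starts of H2AC6 and H2BC4 246 bases apart on opposite strands, so that the 250 bases before each start overlap by 245 bases, and the H2AC6 strand is printed for both. H2BC6, an H2B gene of the same cluster with a small difference, is printed for comparison. Capitals mark 3 motifs searched on both strands: the octamer ATTTGCAT, which binds the factor OCT1 and is known from H2B promoters, CCAAT, and TATAAA.
H2AC6 and H2BC4, chr6:26123922-26124171, plus strand: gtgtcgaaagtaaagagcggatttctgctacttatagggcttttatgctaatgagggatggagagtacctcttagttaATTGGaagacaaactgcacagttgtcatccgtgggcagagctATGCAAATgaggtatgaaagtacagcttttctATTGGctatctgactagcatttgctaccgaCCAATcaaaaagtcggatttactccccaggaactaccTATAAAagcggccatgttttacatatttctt
H2BC5, chr6:26157871-26158120, plus strand: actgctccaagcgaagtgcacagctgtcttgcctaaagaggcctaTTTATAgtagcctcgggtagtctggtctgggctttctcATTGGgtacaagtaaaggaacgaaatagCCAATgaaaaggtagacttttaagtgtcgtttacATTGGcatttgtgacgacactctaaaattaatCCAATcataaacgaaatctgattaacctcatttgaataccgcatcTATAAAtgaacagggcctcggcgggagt
H2BC6, chr6:26183511-26183760, plus strand: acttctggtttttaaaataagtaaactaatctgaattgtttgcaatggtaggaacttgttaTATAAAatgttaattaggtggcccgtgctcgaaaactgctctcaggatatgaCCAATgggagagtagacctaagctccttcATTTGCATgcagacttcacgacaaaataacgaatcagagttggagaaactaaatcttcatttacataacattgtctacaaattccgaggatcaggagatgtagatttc

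The region between H2AC6 and H2BC4 held 1 octamer, on the strand of H2BC4, together with 3 CCAAT motifs and 1 TATAAA motif. The H2BC5 window held 4 CCAAT and 2 TATAAA motifs and no exact octamer, whereas the H2BC6 window held 1 of each. Of the members, 51 had a promoter in the table. The octamer was found in 6 of 8 clustered H2A windows and in 10 of 13 clustered H2B windows, and in none of the 6 H1, 6 H3 and 7 H4 windows. It was thus in 40% of the 40 clustered windows and in 0 of the 10 replacement windows, while 1.66% of all 27305 promoters of the table held it. CCAAT was in 35 clustered and 7 replacement windows (33% of all promoters), and TATAAA was in 27 clustered and 3 replacement windows (11.1% of all promoters). A match describes these letters only and does not show that a factor was bound.

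H2AC6, which encodes a core histone H2A, had an intensity of 109 in the GLUT4 cells and 427 in the vector cells, 3.91-fold lower with GLUT4 (log2 difference -1.97). H2BC4, which encodes a core histone H2B and is read in the opposite direction from the same region, was at 14.4 in the GLUT4 cells and 53.1 in the vector cells, 3.70-fold lower (-1.89). H2BC5, another H2B gene, was at 86.7 in the GLUT4 cells and 277 in the vector cells, 3.20-fold lower (-1.68). Ordered from the most lowered of all 54675 probe sets, these stood at places 4, 5 and 11. A further probe set of H2BC5, of almost equal mean brightness, read 122 in the GLUT4 cells and 195 in the vector cells, 1.60-fold lower (-0.68), at place 435. Both H2BC5 probe sets were thus lower with GLUT4. Their sizes differed by more than 0.29, the SD of the gap between 2 probe sets of a gene. The probe set of H2BC4 lies below the median signal, and once 32 was added to every intensity its difference became -0.88, against -1.70 for H2AC6 and -1.38 for H2BC5. Probe sets naming H2BC4 together with other H2B genes, given further below, lay between -1.62 and -0.12.

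**Figure D1:**
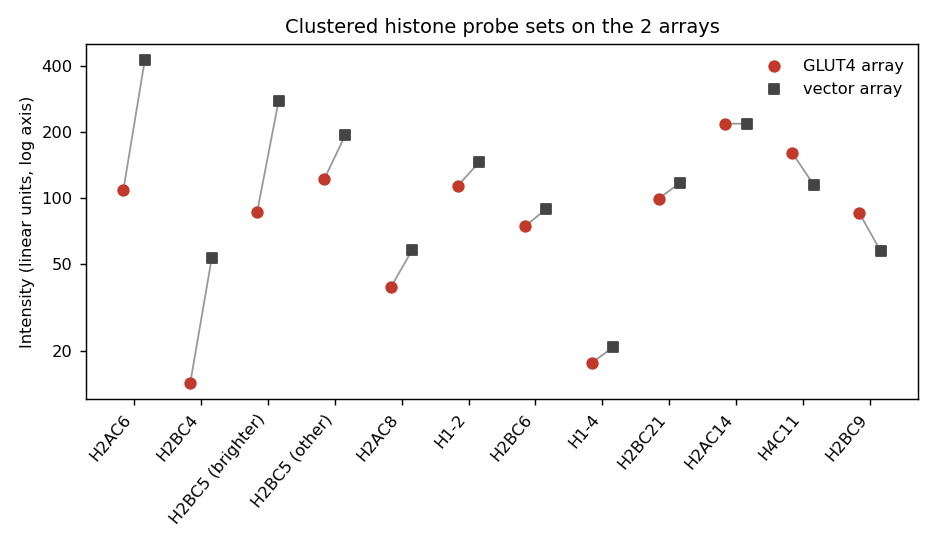
Intensity (log axis, linear units) of 12 probe sets of clustered histone genes on the GLUT4 array (red circles) and the vector array (grey squares), 1 array per group, ordered by the log2 difference. H2AC6 stands at 109 on the GLUT4 array and 427 on the vector array, while H2AC14 lies at 219 on both and H2BC9 lies higher on the GLUT4 array.

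These were the 3 of 45 clustered genes (6.67%) that were more than 1.5-fold lower with GLUT4, the fold threshold of the methods, and all 3 were more than 2-fold lower. Over all genes, 1.54% were more than 1.5-fold lower and 1.84% more than 1.5-fold higher. No clustered gene was more than 1.5-fold higher, and no replacement variant was past 1.5-fold in either direction. Counted as probe sets, 4 of 51 clustered probe sets were more than 1.5-fold lower and none was higher, where 1.22% of all probe sets were lower and 2.04% higher. Above the median signal, 2 of 19 clustered genes were lower and none was higher, where 1.99% of the 12939 genes there were lower and 2.38% higher. H2AC6 and H2BC5 rest only on probe sets of the kinds x_at and s_at, which can detect several transcripts. In all, 10 clustered genes rest only on such probe sets, with H2BC9, H3C8 and H4C11 among them. Without such probe sets H2BC4 alone was left past the threshold, 1 of 35 clustered genes.

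Just inside the threshold on the lower side lay H2AC8, another H2A gene, at 39.3 in the GLUT4 cells and 58.2 in the vector cells (-0.57). Just inside it on the higher side lay H2BC9, an H2B gene, at 85.8 in the GLUT4 cells and 57.4 in the vector cells (0.58). H2BC9 passed the threshold, at 0.60, where the medians of both arrays were set equal or where a loess curve of the difference on the mean was removed.

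**Figure D2:**
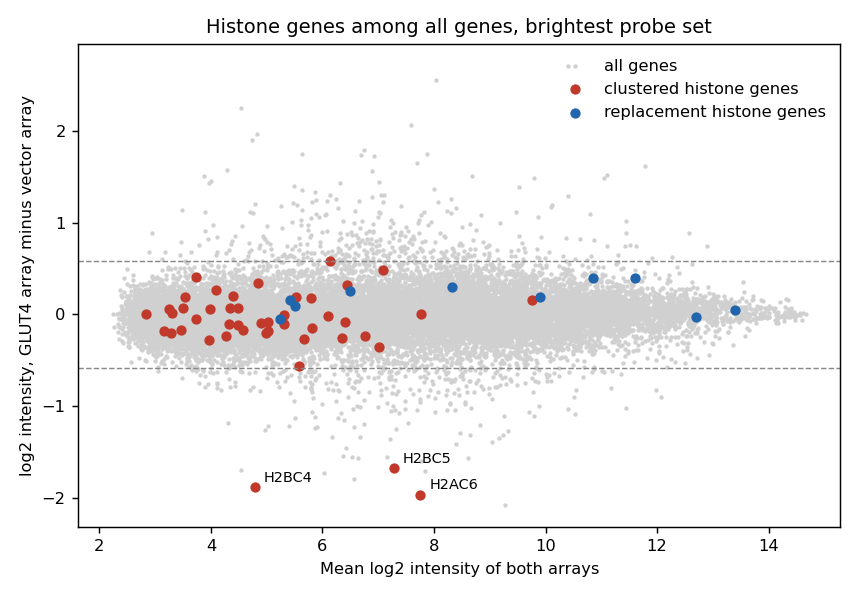
Log2 difference (GLUT4 array minus vector array) plotted over the log2 intensity averaged between the arrays for all 19775 genes (grey), 45 clustered histone genes (red) and 10 replacement variants (blue), with dashed lines at 1.5-fold. Of the histone genes, only H2AC6, H2BC4 and H2BC5 lie beyond the lines.

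Apart from these genes the clustered histones had a median close to that of all genes. The median difference of the 45 clustered genes was -0.08 (range -1.97 to 0.58), against -0.02 over all genes. Without H2AC6, H2BC4 and H2BC5 it was -0.03. Of the 45 genes, 26 (57.8%) were below 0 and 19 above, where 52.2% of all genes were below 0. Many of these probe sets were dim, since 26 of the 45 genes had a mean at or below the median signal of all probe sets.

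The clustered H1 genes encode linker histones. H1-2, one of the most widely made of them, was at 114 in the GLUT4 cells and 146 in the vector cells (-0.36), and H1-6, the testis linker histone, was at 39.5 in both (0.00). The other 4 H1 genes lay below the median signal, between -0.24 for H1-4 and 0.19 for H1-5. Over the 6 H1 genes the median was -0.09, and none was past the threshold.

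Among the 9 H2A genes, H2AC6 was the one past the threshold, and the median was -0.02. That median moved to 0.01 with equal array medians, so it has no direction. H2AC14 read 219 in the GLUT4 cells and 219 in the vector cells (0.00). H2AC4 read 67.9 in the GLUT4 cells and 68.7 in the vector cells (-0.02), and H2AC17 read 46.2 in the GLUT4 cells and 55.6 in the vector cells (-0.27). H2AC25, which lies on chromosome 1 and not in the chromosome 6 cluster, was at 910 in the GLUT4 cells and 818 in the vector cells (0.15), and its dimmer probe set was at 49.3 in the GLUT4 cells and 56.0 in the vector cells (-0.18). The pseudogene H2AC5P was at 58.8 in the GLUT4 cells and 52.1 in the vector cells (0.17). Differences of these genes other than H2AC6 and H2AC8 were thus at most 0.27 in size on their main probe sets.

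Among the 14 H2B genes, 10 were below 0 and the median was -0.15, the lowest of the 5 types. Besides H2BC4 and H2BC5, none was past the threshold. H2BC6 was at 74.4 in the GLUT4 cells and 89.2 in the vector cells (-0.26). H2BC21, an H2B gene on chromosome 1, was at 99.5 in the GLUT4 cells and 117 in the vector cells (-0.24), and H2BC12L on chromosome 21 was at 82.0 in the GLUT4 cells and 86.8 in the vector cells (-0.08). Probe sets for genes of closely similar H2B proteins therefore lay at opposite ends, with H2BC4 at -1.89 and H2BC9, on an x_at probe set, at 0.58. The other H2B genes were below the median signal, and of these H2BC3 stood at 32.4 in the GLUT4 cells and 25.5 in the vector cells (0.35), with the remaining 7 between -0.28 and 0.01.

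The 7 H3 genes had the highest median of the clustered types, at 0.20, with 6 above 0 and none past the threshold. Under 3 other scalings of the arrays this median was between 0.22 and 0.24. H3C8 was at 96.5 in the GLUT4 cells and 77.5 in the vector cells (0.32), and H3C3 was at 49.3 in the GLUT4 cells and 43.4 in the vector cells (0.19). The other 5 lay below the median signal, and of these H3C7 read 15.3 in the GLUT4 cells and 11.5 in the vector cells (0.41), whereas H3C6 alone was below 0 (-0.21).

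Of the 9 H4 genes, 5 were below 0 and 4 above, with a median of -0.11 and none past the threshold. H4C11 was at 161 in the GLUT4 cells and 115 in the vector cells (0.48), on an x_at probe set. An x_at probe set naming 14 H4 genes read similarly, at 171 in the GLUT4 cells and 117 in the vector cells. H4C5 was at 53.7 in the GLUT4 cells and 59.4 in the vector cells (-0.15), and H4C9 was at 38.3 in the GLUT4 cells and 41.3 in the vector cells (-0.11). Most H4 genes encode an identical protein. The 6 below the median signal lay between -0.18 and 0.07. These differences between the types have no test.

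**Figure D3:**
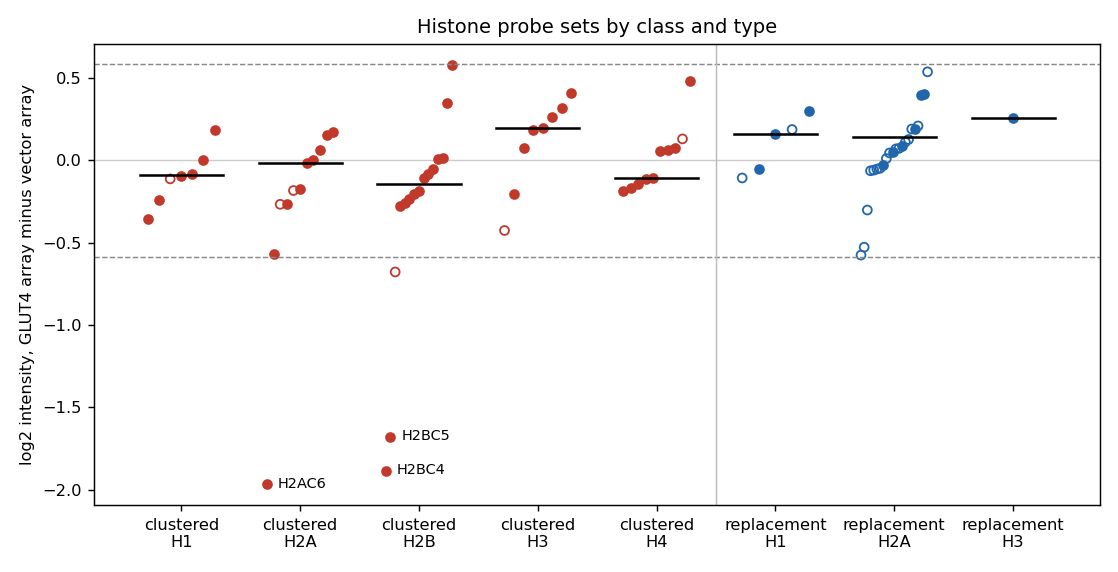
Log2 difference (GLUT4 array minus vector array) of the clustered (red) and replacement (blue) histone probe sets by histone type. Filled points are the main probe set of a gene, open points its other probe sets, black bars the median over genes and dashed lines 1.5-fold, and H2AC6, H2BC4 and H2BC5 stand apart below the line.

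Along chromosome 6 the 3 lowered genes lay close together. In the order of the 42 measured genes, H2BC4, H2AC6, H1-4 and H2BC5 stood at positions 12 to 15, and according to RefSeq these 4 are the only protein-coding genes from H2BC4 to H2BC5. H1-4, which lies among them, was at 17.7 in the GLUT4 cells and 20.9 in the vector cells (-0.24). Their neighbours on either side were H1-6 (0.00) and H2BC6 (-0.26). The lowered genes were thus interrupted by 1 measured gene within 1.5-fold, on a probe set below the median signal. The cluster falls into 2 blocks. In the first, with 26 measured genes, 3 were lower and the median was -0.05. In the second, with 16 measured genes, none was past 1.5-fold and the median was -0.08.

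**Figure D4:**
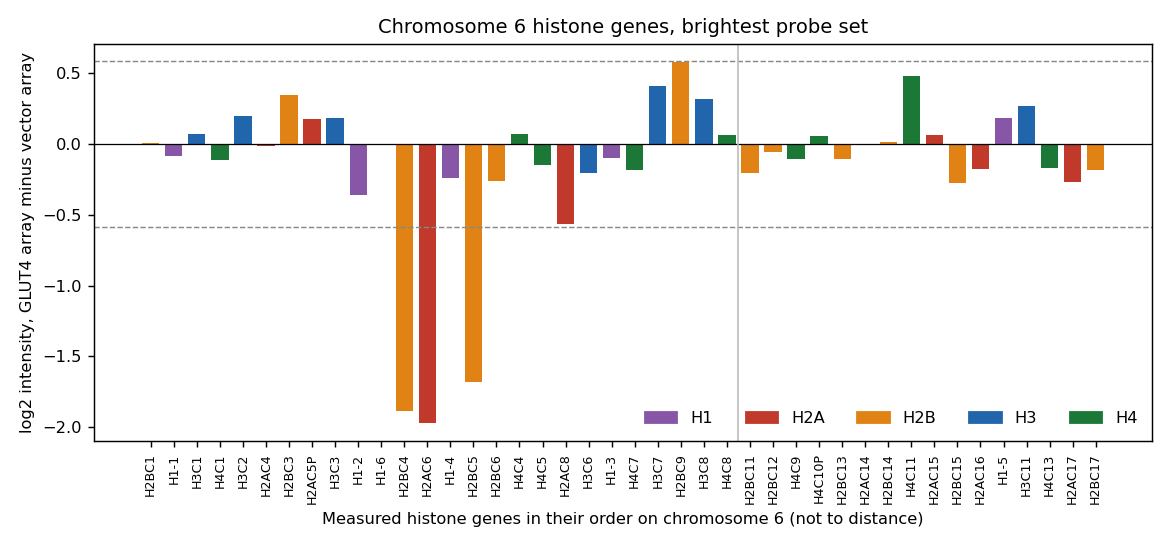
Log2 difference (GLUT4 array minus vector array) of the 42 measured clustered genes in their order on chromosome 6 (not to distance), coloured by histone type. Dashed lines mark 1.5-fold and the vertical line separates the first block of 26 genes from the second of 16. H2BC4, H2AC6 and H2BC5 reach -1.89, -1.97 and -1.68, and no other bar crosses a dashed line.

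The 10 replacement variants showed a median difference of 0.18 (range -0.06 to 0.40), and 9 of them lay above the median signal. Of the 10, 8 were above 0 and 2 below, where 52.2% of all genes were below 0. The 8 include H2AZ2, whose probe sets did not agree, as given below. The median of the clustered genes was thus 0.26 below that of the replacement variants, a gap with no test. With all probe sets of a gene averaged, the replacement median was 0.09 and the gap -0.17, and over their 28 probe sets taken singly the median was 0.07 and the gap -0.17. With H2AX counted among the clustered genes, the gap was -0.23. Without the x_at and s_at probe sets, 7 replacement genes were left with a median of -0.05 and the gap was -0.04. That alternative also left out H1-10, H3-3A and H2AX, which have only such probe sets and were above 0. Of the genes left, H2AZ2 went from 0.40 to -0.53, H2AJ from 0.40 to -0.05 and MACROH2A1 from -0.03 to -0.30. H2AZ1 went from 0.05 to 0.13, and H1-7, H1-8 and MACROH2A2 kept their values.

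H2AZ1, the main H2A.Z gene, whose product marks promoters and regulatory elements, was at 10953 in the GLUT4 cells and 10585 in the vector cells (0.05), and its other probe set was at 7729 in the GLUT4 cells and 7078 in the vector cells (0.13). Both probe sets thus gave a difference smaller than the technical SD. H2AZ2, the second H2A.Z gene, had 4 probe sets that did not agree. The brightest read 3588 in the GLUT4 cells and 2720 in the vector cells (0.40). Of the others, 1 read 1599 in the GLUT4 cells and 2305 in the vector cells (-0.53), and 1 read 366 in the GLUT4 cells and 545 in the vector cells (-0.58). The remaining one read 565 in the GLUT4 cells and 561 in the vector cells (0.01). H2AZ2 therefore has no single direction on these arrays, and its mean over probe sets was -0.17.

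H2AJ, an H2A variant gene on chromosome 12, was at 2133 in the GLUT4 cells and 1614 in the vector cells (0.40), and a similar bright probe set was at 1945 in the GLUT4 cells and 1340 in the vector cells (0.54). Its dim probe sets showed little difference, at 43.8 in the GLUT4 cells and 40.6 in the vector cells (0.11) and at 34.5 in the GLUT4 cells and 35.7 in the vector cells (-0.05). Both bright sets are of the x_at kind. H2AX, whose product is phosphorylated at DNA breaks, was at 1018 in the GLUT4 cells and 891 in the vector cells (0.19), and its 3 other probe sets lay between -0.06 and 0.21.

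The macroH2A genes encode H2A variants with a large extra domain that are enriched on the inactive X chromosome. MACROH2A1 was at 6555 in the GLUT4 cells and 6688 in the vector cells (-0.03), and its next brightest probe set was at 3013 in the GLUT4 cells and 3139 in the vector cells (-0.06). The next one read 1075 in the GLUT4 cells and 1325 in the vector cells (-0.30), and the 4 dimmest lay between -0.05 and 0.07. MACROH2A2 was at 46.6 in the GLUT4 cells and 43.9 in the vector cells (0.09). None of the macroH2A probe sets passed 1.5-fold.

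H3-3A, which encodes the replacement histone H3.3, was at 99.1 in the GLUT4 cells and 82.8 in the vector cells (0.26) on the 1 probe set that names it alone. That value entered the median of the replacement variants. The 8 probe sets naming H3-3A together with H3-3B, given further below, were all brighter and had a median of 0.06. H1-10, a linker histone made in most cells, was at 355 in the GLUT4 cells and 288 in the vector cells (0.30). Linker histone genes of germ cells were also measured. H1-7, of spermatids, was at 45.0 in the GLUT4 cells and 40.3 in the vector cells (0.16), with other probe sets at 0.19 and -0.11, and H1-8, of oocytes, was at 37.1 in the GLUT4 cells and 38.5 in the vector cells (-0.06). The 3 members of neither class were below the median signal. The antisense transcript H1-10-AS1 was at 24.5 in the GLUT4 cells and 22.2 in the vector cells (0.14), the pseudogene H1-9P at 27.7 in the GLUT4 cells and 20.5 in the vector cells (0.44), and H3-4, an H3 gene on chromosome 1, at 25.1 in the GLUT4 cells and 28.9 in the vector cells (-0.20).

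Because histone genes are near copies of each other, a further 28 probe sets carry the names of several genes that include histones, and these give no single gene its value. Of the 20 for clustered genes, 3 were more than 1.5-fold lower with GLUT4, all of them also more than 2-fold lower, none was higher, and the median was -0.08, where 1.22% of all probe sets were lower and 2.04% higher. By type, their medians were 0.06 for 6 H4 probe sets, -0.14 for 2 H3 probe sets, -0.39 for 5 H2B probe sets, -0.05 for 5 H2A probe sets and -0.41 for 2 naming both H2A and H3 genes, so that H3 and H4 stood on the other side of 0 from their single-gene probe sets. A probe set naming 5 H2B genes, H2BC4 among them, was at 26.5 in the GLUT4 cells and 81.5 in the vector cells (-1.62). Another, naming 2 H2B genes, was at 18.2 in the GLUT4 cells and 46.2 in the vector cells (-1.34). The last named 14 H4 genes and was at 46.0 in the GLUT4 cells and 96.3 in the vector cells (-1.07).

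Other probe sets for the same groups of genes did not share these differences. For H4, the brightest probe set naming 14 genes was at 16063 in the GLUT4 cells and 15590 in the vector cells (0.04), and 1 more was at 171 in the GLUT4 cells and 117 in the vector cells (0.55). For H2B, the other 2 probe sets naming the same 5 genes, H2BC4 among them, were at -0.39 and -0.12. The other probe set naming the same 2 H2B genes was at 30.3 in the GLUT4 cells and 25.6 in the vector cells (0.24). Both probe sets for that pair of genes had a mean below the median signal. An H2A probe set naming 2 genes was at 1321 in the GLUT4 cells and 1765 in the vector cells (-0.42), and another at 491 in the GLUT4 cells and 605 in the vector cells (-0.30). The 8 probe sets for H3.3 had a median of 0.06 (range -0.01 to 0.55), and the brightest of them was at 15630 in the GLUT4 cells and 15711 in the vector cells (-0.01).

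Genes that make and handle histone messengers were listed next. Of 26 listed, 24 were measured, none passed the threshold in either direction, and the median was -0.01. Of all genes above the median signal, 1.99% were more than 1.5-fold lower and 2.38% higher. A count of 0 in a list of this size is near those shares. SLBP, which binds the stem-loop of histone messengers and is needed for their processing and translation, was at 4881 in the GLUT4 cells and 5099 in the vector cells (-0.06). NPAT, the coactivator of histone gene transcription that cyclin E with CDK2 phosphorylates, was at 267 in the GLUT4 cells and 289 in the vector cells (-0.11). CASP8AP2, a component of histone locus bodies, had the lowest value of the list at 307 in the GLUT4 cells and 431 in the vector cells (-0.49), and ZNF473, of the U7 processing complex, the highest at 150 in the GLUT4 cells and 112 in the vector cells (0.43).

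Histone chaperones and remodellers, which carry histones to chromatin and exchange them there, had a median of 0.00 over 26 measured genes of 27. IPO4, an importin that carries histones H3 and H4 into the nucleus, was the 1 gene past the threshold, at 370 in the GLUT4 cells and 244 in the vector cells (0.60). That count is near the shares of all genes above the median signal, 1.99% lower and 2.38% higher. HIRA, which deposits H3.3 independently of DNA replication, was at 938 in the GLUT4 cells and 1202 in the vector cells (-0.36), the lowest of the list.

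Since clustered histones are made with DNA replication, genes of the cell cycle are set beside them. Of 26 listed S phase genes, 25 were measured, none passed 1.5-fold and the median was -0.03. For this list and the next, the share of all genes above the median signal was 1.99% lower and 2.38% higher. PCNA, the sliding clamp of the replication fork, was at 6507 in the GLUT4 cells and 6141 in the vector cells (0.08), and RRM2, a subunit of ribonucleotide reductase, was at 4769 in the GLUT4 cells and 5094 in the vector cells (-0.10). All 20 mitosis genes were measured, with a median of 0.15 and none past the threshold. Of them, 17 were above 0, where 52.2% of all genes were below 0. CCNB1, cyclin B1, was the highest at 3835 in the GLUT4 cells and 2970 in the vector cells (0.37).

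A list of 18 genes of cell cycle entry and exit held mostly inhibitors of cyclin-dependent kinases, retinoblastoma family and growth arrest genes. Of these 18, 16 were measured, 1 was more than 1.5-fold lower and none was higher, with a median of -0.04. Of all genes above the median signal, 1.99% were lower and 2.38% higher. CDKN2B, which inhibits CDK4 and CDK6, was at 238 in the GLUT4 cells and 371 in the vector cells (-0.64). CDKN1B was at 266 in the GLUT4 cells and 381 in the vector cells (-0.52), and CDKN1A at 1044 in the GLUT4 cells and 1296 in the vector cells (-0.31). The other measured inhibitors CDKN2A, CDKN2D and CDKN1C stood at -0.02, -0.03 and 0.21. GADD45B, a stress-induced gene, was at 2983 in the GLUT4 cells and 2039 in the vector cells (0.55). The list also holds the D cyclins, which activate CDK4 and CDK6, and CCND1, CCND2 and CCND3 stood at -0.27, -0.25 and -0.25.

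**Figure D5:**
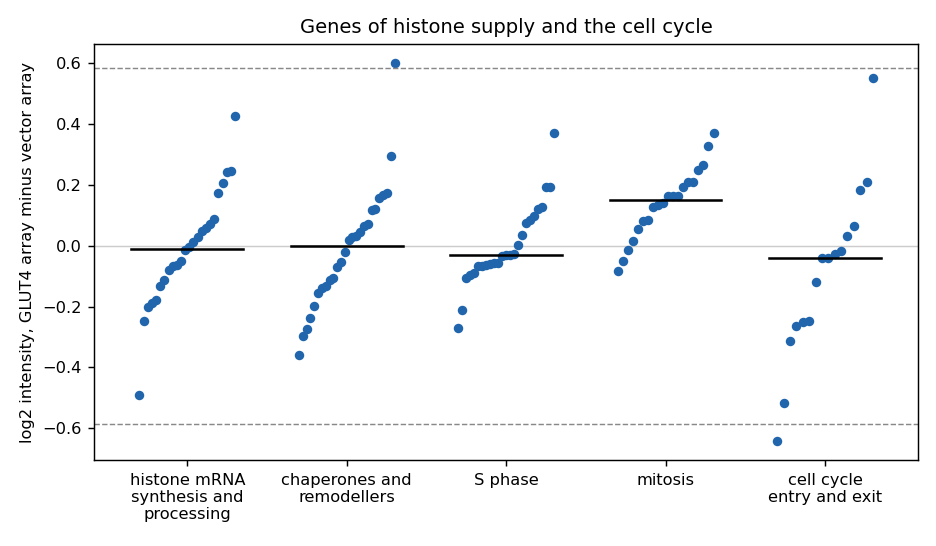
Log2 difference (GLUT4 array minus vector array) of each measured gene in 5 lists of histone supply and the cell cycle, with the median of each list as a black bar and dashed lines at 1.5-fold. The medians lie between -0.04 and 0.15, and IPO4 (0.60) and CDKN2B (-0.64) are the points beyond the dashed lines.

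Markers of other cell types are given beside these values. Of 6 fibroblast markers, DCN and LUM were more than 1.5-fold higher with GLUT4, and the other 4 were within 1.5-fold. Over all genes, 1.54% were more than 1.5-fold lower and 1.84% higher. The summed intensity of the 6 was 1459 in the GLUT4 cells and 834 in the vector cells. Most of that sum was DCN, at 1050 in the GLUT4 cells and 482 in the vector cells, while COL1A1 was at 226 in the GLUT4 cells and 224 in the vector cells. The squamous markers, 7 measured of 10, summed to 37908 in the GLUT4 cells and 36809 in the vector cells, and most of that sum was KRT5 and SFN. KRT14 was more than 1.5-fold higher, at 3985 in the GLUT4 cells and 1963 in the vector cells (1.02). EPCAM was more than 1.5-fold lower, at 3020.5 in the GLUT4 cells and 5361 in the vector cells (-0.83). CDH1, within 1.5-fold, was at 2224 in the GLUT4 cells and 3223 in the vector cells (-0.54). None of the 6 blood or 4 endothelial markers passed the threshold, and the blood markers summed to 199 in the GLUT4 cells and 226 in the vector cells. The endothelial markers summed to 97.1 in the GLUT4 cells and 91.2 in the vector cells. Whether these differences have a part in those of H2AC6, H2BC4 and H2BC5 was not tested.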

How the data were processed

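Total RNA of FaDu cells with GLUT4 or the control vector was labelled from the polyadenylated end and hybridized to 1 array each. The authors deposited intensities on a linear scale, normalized between the arrays. Per the methods, GeneSpring was used for log2 normalization, and MAS5 stands without a version in the submitters' processing notes. The order of these steps was not given in the sources used. The log2 was taken after a floor of 1. Of 54675 probe sets, 41097 name 1 gene, 1801 several and 11777 none. All 58 members matched NCBI RefSeq (GRCh38.p14), the source of the promoters, gene order and chromosomes. Members, classes and lists were chosen with earlier results of these data known. Both values are given for members past 1.5-fold, replacement variants and clustered genes above the median signal. SLBP, NPAT and members past 1.5-fold were to be named from the lists, and the other list genes and the clustered genes named below the median signal were chosen after their values were seen. The procedure was tested on simulated data. Alternatives were equal array medians, quantile normalization, loess (fraction 0.3), 32 added to every intensity, only genes above the median signal, probe sets other than x_at and s_at, averaged probe sets, single probe sets and other class boundaries. The precision is limited by the number of arrays. Computations used pandas 2.3.3 and numpy 2.4.6 under Python 3.11.15, with loess from statsmodels 0.14.6 and figures from matplotlib 3.10.9.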

Additional observations from a re-analysis of the deposited data

How the results depend on the processing

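The class medians, their gap and the counts past 1.5-fold were recomputed under 10 alternatives chosen with the design and 2 added after seeing the data. The clustered median ranged from -0.09 to -0.03, that of all genes from -0.02 to 0.01. The replacement median ranged from -0.05 to 0.20 and changed sign in 1 alternative, given below. The count of clustered genes more than 1.5-fold lower was 3, but 2 above the median signal and 4 as single probe sets. The count of clustered genes more than 1.5-fold higher was 1 with equal array medians and 1 with the loess curve removed, H2BC9 in each case. Without x_at and s_at probe sets the median of the replacement variants was -0.048, the gap between the class medians -0.035 and the count of clustered genes more than 1.5-fold lower 1, since 10 clustered genes have only such probe sets. Without H2AC6, H2BC4 and H2BC5, an alternative added after seeing the data, that count was 0 by construction. Single genes were recomputed under 7 alternatives, and the number that moved by more than the technical SD of a single probe set (0.20) was 6 with the offset of 32, 3 without x_at and s_at, 2 with averaged probe sets and 0 under the other 4. Averaging gave -1.18 for H2BC5. No paired analysis was possible because each group had 1 array.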

Other observations

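A few histone genes lie outside the symbols used above. CENPA, which encodes the H3 variant of centromeres, was at 577 in the GLUT4 cells and 515 in the vector cells (log2 difference 0.16). The germline histone genes were dim. H2AP was at 16.6 in the GLUT4 cells and 18.3 in the vector cells (-0.14), and H2BW2 was at 13.7 in the GLUT4 cells and 12.8 in the vector cells (0.10). The pseudogene H2BW4P was at 60.4 in the GLUT4 cells and 63.2 in the vector cells (-0.06) on 1 probe set and at 21.6 in the GLUT4 cells and 21.4 in the vector cells (0.01) on another. None of these was past 1.5-fold, and none differed by more than the technical SD of 0.20.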
